A study of Mus musculus with 4 samples.

Results

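The circadian clock genes examined here were Arntl, Clock, Per1, Per2, Per3, Cry1, Cry2, Nr1d1, Nr1d2 and Dbp. Their ATAC-seq peaks were taken as all peaks that overlapped the annotated gene or the 5 kb upstream of its start, which gave 38 of the 117282 peaks in the deposited table (mm10, which is GRCm38, with genes from GENCODE vM21). All 10 genes had at least 1 peak. The cells were mesenchymal stem cells (MSCs) taken from mouse bone and cultured. There were 2 samples from old mice (18 to 22 months) and 2 from young mice (3 to 5 months), and both groups were grown at 2% O2 in αMEM with fetal bovine serum. The study's methods name wild-type C57BL/6N males for the young age range and a sort for cells that carry Sca-1 and CD140a and lack the blood markers CD45 and Ter-119. Strain, sex and sort of the old samples, whether mice were pooled, the time of day at which cells were collected and any synchronisation of the cultures are not given in the sources used here. ATAC-seq uses a transposase that cuts open chromatin, so a peak's score measures how accessible its DNA was and not how much the gene was transcribed.

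The circadian clock is a loop of transcription factors that runs with a period of about a day in most mammalian cells, bone and its stromal cells included. CLOCK and BMAL1, the product of Arntl, bind E-box sequences together and activate the Per and Cry genes, whose products return to the nucleus and repress that same activation. In a further loop, REV-ERBα and REV-ERBβ (Nr1d1 and Nr1d2) compete with ROR factors for elements at Arntl and other targets, and the E-box-driven factor DBP acts on D-boxes. In cultures that have not been synchronised the clocks of single cells run out of step, so that a bulk sample averages over their phases.

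No difference between old and young MSCs in the open chromatin of the clock genes passed the test with all 4 samples. Each of the 10 genes had a promoter peak, meaning a peak that came to within 1 kb of a transcription start of that gene, and none of these 10 peaks had a log2 fold change beyond -0.21 or 0.059. Of the 38 peaks, 0 were lower and 0 were higher in old MSCs at a false discovery rate of 0.01 (limma, adjusted over all peaks; lowest adjusted p = 0.200). Over the whole table, 0.0307% of peaks were called lower and 0.0256% called higher. At an unadjusted p under 0.05, 2 clock peaks were higher in old MSCs, where 7.49% of all peaks were, and 0 were lower, where 8.87% were. These 2 lay upstream of Arntl and in an intron of Per2. Both old samples were above both young samples at 8 clock peaks (23.2% of all peaks) and below them at 6 (24.2% of all peaks), so the clock genes did not stand apart from the rest of the table by these counts.

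The score is the authors' value per peak, which they named RPKM. Here it was divided by a scaling factor for each sample (RLE, the median ratio to the geometric mean of the samples), and log2 fold changes are old minus young on the scale of log2(score + 1), which understates changes of weak peaks. The library totals implied by the scores were 28600303 and 32559794 counts in old replicates 1 and 2 and 28259470 and 29413803 counts in young replicates 1 and 2. A clock promoter peak held between 377 and 3048 counts in a sample. At 2 of the 38 peaks, each 100 bp wide, at least 1 sample had 3 counts or fewer. Nothing in the labels says that the samples of a group came from separate mice, so p-values measure the spread between these samples, which may be technical.

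The median log2 fold change was 0.064 over the 38 clock peaks and 0.0011 over all peaks. RLE scaling centres the samples on each other, so the median over all peaks is small by construction. A shift shared by most peaks is removed by it and cannot be seen in these values. It was -0.059 over the 10 clock promoter peaks and -0.027 over all 16213 promoter peaks, and it was 0.13 over the other 28 clock peaks and 0.0092 over all other peaks. Of these 28, 3 lie over the promoter of a neighbouring gene, while the peaks they are set against leave out every promoter, so the classes are not fully alike. In number, 15 of the 38 clock peaks were lower in old MSCs (39.5%, against 49.9% of all peaks), namely 8 of the 10 promoter peaks (54.7% of all promoter peaks) and 7 of the other 28 (49.1% of all other peaks). On the scores as deposited, without RLE scaling, 68.4% of clock peaks and 74.6% of all peaks had a lower value in old MSCs. The clock median was then -0.22 and that of all peaks -0.27, with 5 clock peaks lower and 0 higher at an unadjusted p under 0.05 (18.5% and 1.70% of all peaks). With RLE scaling, the 95% confidence intervals of the 10 promoter log2 fold changes lay between -0.51 and 0.32, without adjustment for their number. That is the size of difference, relative to the typical peak, that 2 samples per group left possible.

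**Figure D1:**
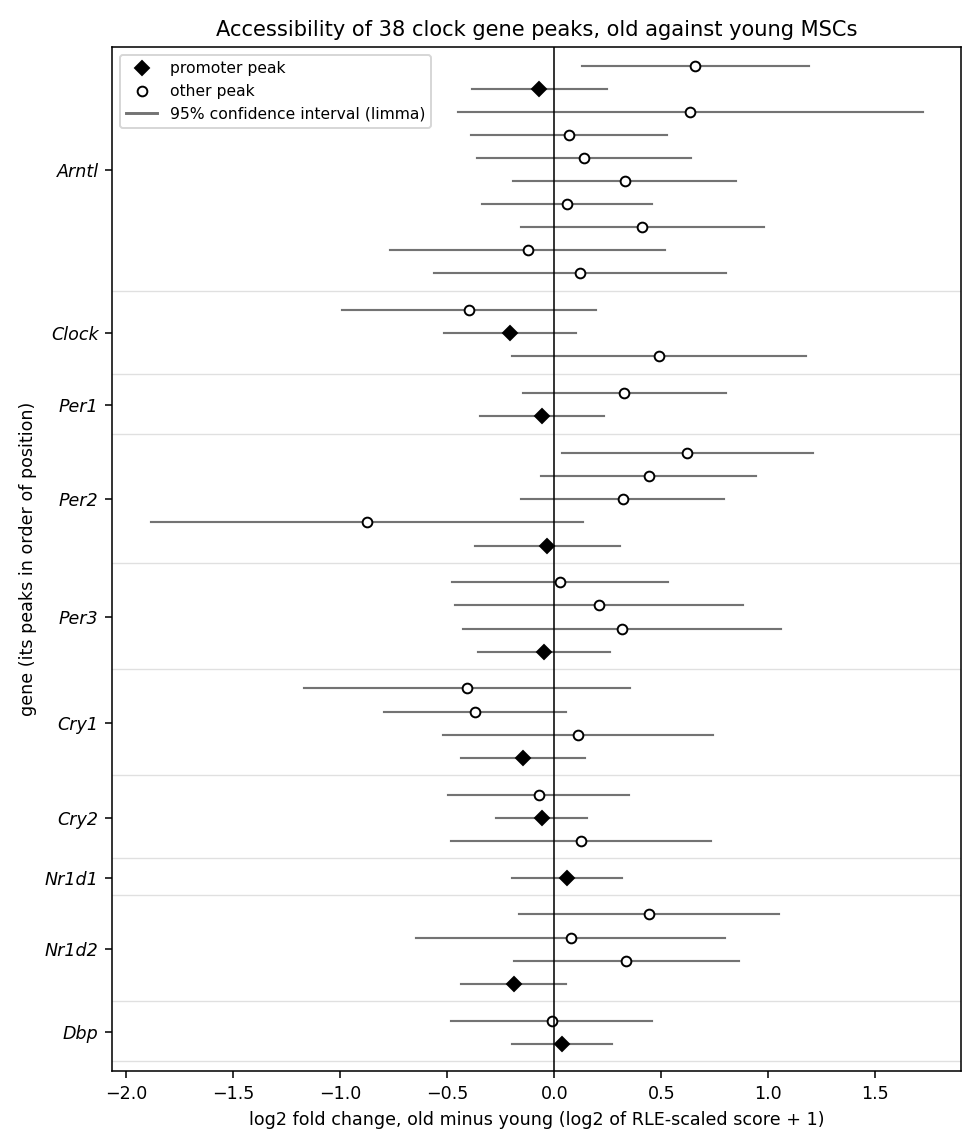
Log2 fold change (old minus young, horizontal axis) of each of the 38 clock gene peaks, listed by gene in order of position; diamonds are promoter peaks, circles are other peaks, and lines are 95% confidence intervals from limma. The promoter peaks lie between -0.21 and 0.059, the other peaks between -0.88 and 0.66, and only the intervals of the upstream Arntl peak and of 1 intronic Per2 peak leave out 0.

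Arntl and Clock encode the activators of the loop. Arntl had 10 peaks, of which 8 lay within the gene away from its start. Its promoter peak (chr7:113206401-113208900) had RLE-scaled scores of 184 and 234 in old replicates 1 and 2 and of 226 and 210.1 in young replicates 1 and 2. The old samples lay on either side of the young ones, and the log2 fold change came to -0.070 (SE, the standard error, 0.15; adjusted p = 0.862 by limma). The upstream peak (chr7:113201301-113203000), which ends 4465 bp before the start, had scores of 23.7 and 27.4 in the old samples and 15.3 and 16.3 in the young ones. Both old samples were above both young samples, with a log2 fold change of 0.66 (SE 0.25), the highest of the 38 peaks, and the difference missed the threshold (limma adjusted p = 0.200). Of the 10 Arntl peaks 8 had a higher mean in old MSCs, but the summed score of all Arntl peaks was 433 and 543 in old and 462 and 465 in young MSCs (log2 fold change 0.065). Clock, the partner of BMAL1, had 3 peaks. Its promoter peak (chr5:76303001-76306300) had scores of 162 and 170.2 in old and 199 and 185 in young MSCs. Here the old values lay under both young values, and the log2 fold change of -0.21 (SE 0.15) was the lowest of the 10 promoter peaks without passing the test (limma adjusted p = 0.512). The summed Clock score was 201 and 198 in old and 236 and 220.2 in young MSCs.

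The Period genes encode the repressors that are induced through E-boxes. Per2 had 5 peaks. Its promoter peak (chr1:91454301-91461100) had scores of 270.2 and 419 in old replicates 1 and 2 and of 351 and 338 in young replicates 1 and 2, so that the group means were 344 ± 105 and 344 ± 9.12 (SD, n = 2 each) and the log2 fold change was -0.033. An intronic peak (chr1:91428201-91429300) had 18.1 and 23.2 in old and 15.3 and 11.0 in young MSCs. Both old samples were above both young ones (log2 fold change 0.62 with SE 0.28; adjusted p = 0.278 by limma). The remaining Per2 peaks are described although they were chosen after their values were seen. Those over coding exons had 52.5 and 95.5 in old against 55.1 and 49.0 in young MSCs (chr1:91435701-91438600), and 51.6 and 85.4 against 50.4 and 55.8 (chr1:91444601-91447200). In each of these, old replicate 2 stood apart from the other 3 samples, which lay close together. A peak of 100 bp (chr1:91453901-91454000) had 2 counts in each old sample and 6 and 8 in the young ones. Its log2 fold change was -0.88 (adjusted p = 0.380 by limma), the lowest of the 38 peaks, and it rests on these few counts.

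Per1 had a promoter peak of 23500 bp (chr11:69092001-69115500) that spans the whole gene. Its scores were 583 and 861 in old replicates 1 and 2 and 732 and 745 in young replicates 1 and 2 (log2 fold change -0.060 with SE 0.14; adjusted p = 0.872 by limma). As at Per2, old replicate 1 was the lowest and old replicate 2 the highest of the samples, while the young samples nearly coincided. The other Per1 peak lies 4617 bp upstream, over the promoter of Vamp2. The summed scores were 627 and 918 in old and 778 and 779 in young MSCs for Per1, and 393 and 623 in old and 473 and 456 in young MSCs for Per2. Per3, whose span is also annotated to Camta1, had 4 peaks. Its promoter peak (chr4:151042601-151046300) had scores of 188 and 179 in old and 202 and 177 in young MSCs, which overlapped (log2 fold change -0.047, limma adjusted p = 0.910). The summed Per3 score was 229 and 223 in old and 242 and 215 in young MSCs.

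The Cryptochromes are the partners of the Period proteins in repression. The Cry1 promoter peak (chr10:85182801-85186300) had scores of 206 and 219.9 in old and 229 and 242 in young MSCs. The old values lay under both young values, with a log2 fold change of -0.15 (SE 0.14; adjusted p = 0.640 by limma). The densest peak away from a start at Cry1 lies in an intron (chr10:85161101-85162600) and was singled out after its values were seen. It had 56.4 and 50.3 in old and 61.0 and 78.4 in young MSCs, again without overlap, and a log2 fold change of -0.37 (95% confidence interval from -0.79 to 0.053, limma adjusted p = 0.375). The summed Cry1 score was 277 and 287 in old and 308 and 337 in young MSCs. The Cry2 promoter peak (chr2:92407901-92435500) was the widest of the 38, at 27600 bp. It had 821 and 929 in old and 920.2 and 899.6 in young MSCs, with overlapping groups (log2 fold change -0.059, limma adjusted p = 0.822). The summed Cry2 score, which takes in a peak of 7000 bp over the Mapk8ip1 promoter, was 902 and 1004 in old and 1011 and 969 in young MSCs.

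**Figure D2:**
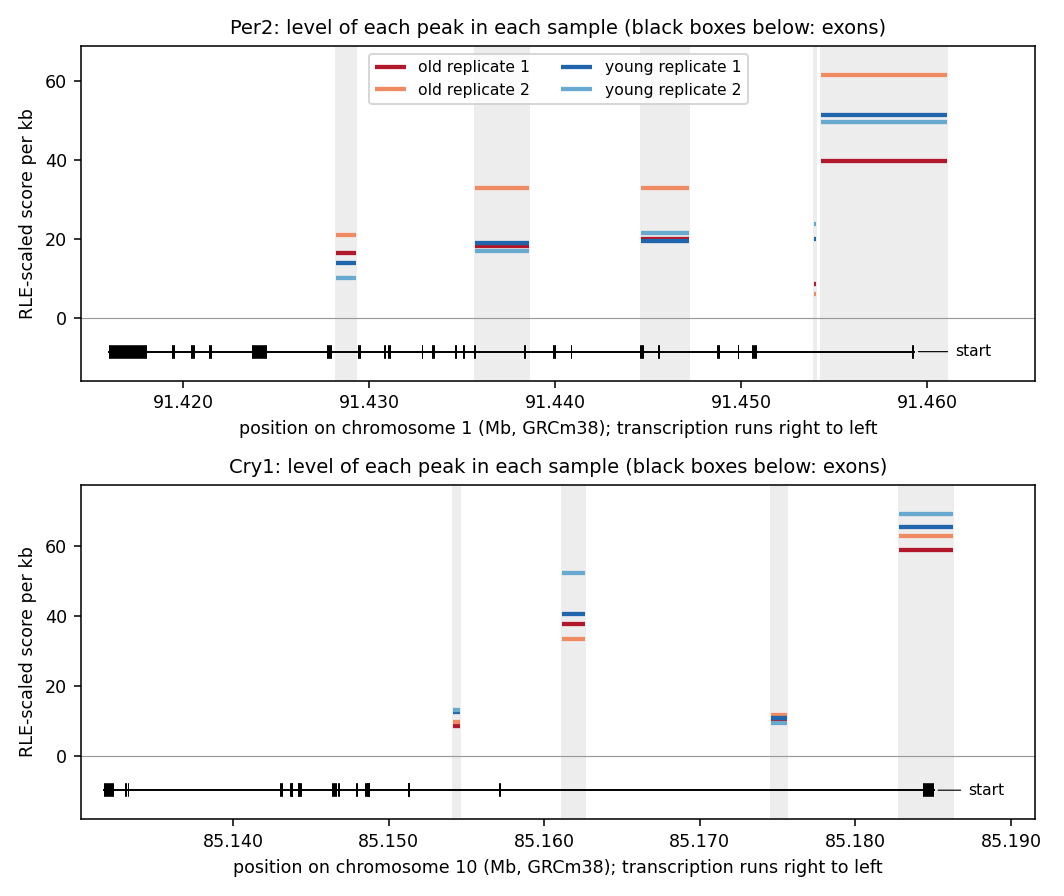
Maps of Per2 and Cry1 (horizontal axis, position in Mb on GRCm38; vertical axis, RLE-scaled score per kb of peak), with a horizontal line for each sample at each peak, grey bands for the peaks and black boxes for annotated exons. At the Per2 promoter the lines run from 39.7 in old replicate 1 to 61.6 in old replicate 2, whereas at the intronic Cry1 peak both old samples (37.6 and 33.5) lie below both young samples (40.7 and 52.2).

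Nr1d1 and Nr1d2 encode the REV-ERB repressors of the further loop. The only Nr1d1 peak, of 16100 bp (chr11:98761901-98778000), spans the gene and also overlaps Thra. Its scores were 516 and 652 in old replicates 1 and 2 and 573 and 541 in young replicates 1 and 2. The old samples were the lowest and the highest, and the log2 fold change was 0.059 (limma adjusted p = 0.855). For Nr1d1 this peak is also the summed score. The Nr1d2 promoter peak (chr14:18233201-18240700) had 491 and 482 in old and 517 and 596 in young MSCs. Here the old values were the 2 lowest (log2 fold change -0.19 with SE 0.12; adjusted p = 0.438 by limma). The other 3 Nr1d2 peaks had log2 fold changes between 0.076 and 0.44, and the summed Nr1d2 score was 540.0 and 531 in old and 557 and 633 in young MSCs.

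Dbp, the output factor that binds D-boxes, had a promoter peak of 21300 bp (chr7:45703701-45725000), which also covers promoters of Fam83e, Rpl18, Spaca4 and Sphk2, so its score is not that of Dbp alone. The scores of 579 and 647 in old and 611 and 584 in young MSCs overlapped (log2 fold change 0.036 with SE 0.11; adjusted p = 0.907 by limma). The summed Dbp score, which takes in a peak over the Car11 promoter, was 612 and 688 in old and 645 and 623 in young MSCs. In all, 4 of the 38 clock peaks covered the promoter of another protein-coding gene.

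On the summed scores, 0 of the 10 clock genes passed a false discovery rate of 0.01 (limma over 17308 protein-coding genes with a peak, 0.0116% of which passed; lowest adjusted p = 0.679), and 0 had an unadjusted p under 0.05 (8.33% of those genes). The 6 genes with a lower mean log2 sum in old MSCs were Clock, Cry1, Nr1d2, Cry2, Per1 and Per3, in order from -0.19 to -0.016. The 4 others were Per2, Arntl, Nr1d1 and Dbp, from 0.092 to 0.033. In Clock, Cry1 and Nr1d2 both old samples lay below the young ones, which held for 25.2% of all genes, and the same was true of their promoter peaks (25.7% of all promoter peaks). For the 4 genes with a higher sum the direction turned on the scores as deposited.

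**Figure D3:**
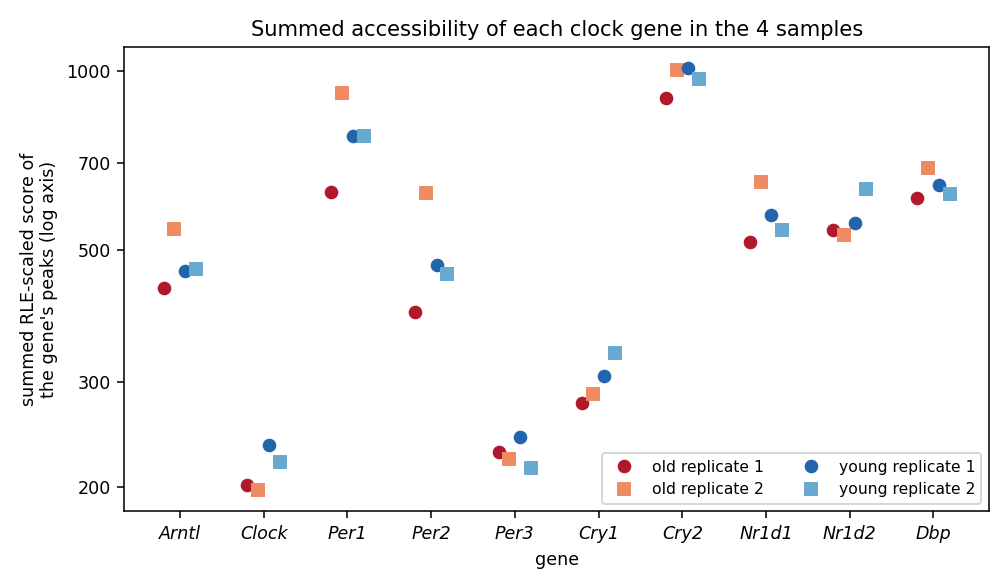
Summed RLE-scaled score of each clock gene's peaks (vertical axis, logarithmic) in the 4 samples (circles and squares for replicates 1 and 2; red and orange for old, blue for young). For Per1, Per2, Arntl, Nr1d1 and Dbp the 2 old samples are the lowest and the highest of the 4, and for Clock, Cry1 and Nr1d2 both old samples are below both young samples.

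The 2 old samples differed from each other more at Per1 and Per2 than at most promoters. Old replicate 2 exceeded old replicate 1 by 0.56 on the log2 scale at the Per1 promoter peak and by 0.63 at that of Per2. Among all promoter peaks 9.47% and 6.56% had a larger difference in that direction, and the median difference without regard to sign was 0.25. Over the 10 clock promoter peaks that median was 0.17, so as a set they did not differ more than other promoters. Per1 and Per2 had the largest differences of the 10 and were singled out after their values were seen. The young replicates of all promoter peaks differed by a median of 0.13. A fit without 1 old sample therefore gave opposite answers at these genes, with the lone old sample assumed to vary like the young ones. Without old replicate 2, the Per1 promoter peak was called lower in old MSCs (log2 fold change -0.34, limma adjusted p = 0.00101), where 1.05% of all peaks were, and so was the summed Per1 score (-0.31; 1.90% of all genes were called), and without old replicate 1 the log2 fold change of the peak was 0.22. Without old replicate 1, the Per2 peaks over coding exons were called higher, with log2 fold changes of 0.87 and 0.68 (0.015 and -0.038 without old replicate 2), and so was the summed Per2 score (0.42). In that fit 3.35% of all peaks were called higher and 22.3% of all genes were called in either direction, so such calls are not particular to Per2. Without old replicate 2, the log2 fold change of the Per2 sum was -0.24.

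Across the 38 clock peaks, old replicate 2 was above both young samples at 25 peaks (40.7% of all peaks) and below both at 7 (40.1% of all peaks). Old replicate 1 was above both young samples at 10 clock peaks (37.0% of all peaks) and below both at 15 (38.8% of all peaks). The median log2 difference from the young samples was 0.20 for old replicate 2 and -0.033 for old replicate 1 over the clock peaks, and 0.0080 and -0.0050 over all peaks. Per1 and Nr1d1 lie on chromosome 11, where the median over all 7156 peaks was 0.18 in old replicate 2 and 0.021 in old replicate 1. Per2 lies on chromosome 1, where the median over all peaks was -0.020 in old replicate 2 and -0.0092 in old replicate 1. The libraries also differed in other ways. The scores of all peaks summed to 43.8% and 50.3% of the library total in old replicates 1 and 2. In young replicates 1 and 2 they summed to 57.5% and 62.9%, so both old samples were below both young ones. Mitochondrial peaks made up 15.7% and 6.52% of the summed scores in old replicates 1 and 2, and 13.5% and 14.5% in young replicates 1 and 2. The RLE factors were 0.813 and 1.01 for the old and 1.07 and 1.15 for the young samples. The part of these differences in the clock values was not tested.

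Promoter peaks of the clock genes were broad. They had a median width of 7150 bp, where all promoter peaks had 2500 bp. Of the 38 clock peaks, 7 were at least 5000 bp wide, a width reached by 4.67% of all peaks and 17.1% of promoter peaks. Per kb of peak, the mean of each of the 10 clock promoter peaks was above the median of all promoter peaks, which was 27.1 RLE-scaled scores per kb, though Per1 was below it in old replicate 1 (24.8). Arntl led with a mean of 85.5 per kb (from 73.7 to 93.7 over the 4 samples), followed by Nr1d2 with 69.5 (from 64.3 to 79.4) and Cry1 with 64.1 (from 58.8 to 69.2), and these neighbours overlapped. Clock (54.3), Per2 (50.6) and Per3 (50.4) came next, and the Per2 samples, from 39.7 to 61.6, spanned the means of Clock and Per3. The genes with peaks over 16 kb, Nr1d1 (35.4), Cry2 (32.3), Per1 (31.1) and Dbp (28.4), were the lowest per kb. Their peaks take in gene bodies or neighbours as well as the start, and the score at the start alone was not measured.

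Of the other 28 clock peaks, 14 were intronic, 9 overlapped an exon and 5 lay upstream of the gene. Their median was 13.5 scores per kb, and that of all peaks outside promoters was 12.6. The intronic Cry1 peak reached 41.0 per kb and an intronic Arntl peak (chr7:113259601-113261500) reached 46.0. Within the 5 kb window the outermost peaks were the upstream peaks of Per1 and Arntl, 4617 and 4465 bp from the start. A window of 10 kb would have added 2 peaks, at Arntl (chr7:113195101-113197900, log2 fold change 0.21) and at Nr1d1 (chr11:98781601-98789900, log2 fold change 0.053).

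Motifs of the clock were looked for on both strands in the RefSeq promoter windows of these genes (GRCm38.p6), each running from 250 bases before a start to 50 bases after it. For 9 of the 10 genes, all except Per2, 13 windows were found, and all 13 lay within a peak. The E-box CACGTG was in 2 of them, at Cry1 and Per1, and in 7.15% of all 32851 windows. The related sequence CACGTT was in 3, at Cry1, Cry2 and Nr1d1, and in 4.68% of all windows. The D-box TTATGTAA occurred in the Per3 window, at 2 places, and in 0.938% of all windows, and the ROR and REV-ERB element ANTAGGTCA in 1 Arntl window and in 0.661% of all windows. The D-box TTACGTAA, the element ANTGGGTCA and the cAMP response element TGACGTCA were in 0 of the 13 windows and in 0.119%, 0.791% and 1.79% of all windows. The motifs with ACGT at their centre exclude each other at a given ACGT. A match is a run of letters and not evidence of binding.

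The promoter stretches that hold these matches are printed because each lies inside an accessible peak and shows how close the match is to the start. They run 5′ to 3′ on the strand of the gene up to the next annotated exon, with matches in capitals. CACGTT on the other strand reads AACGTG. At Cry1 (chr10:85185065-85185304, minus strand) the E-box ends 54 bases before the RefSeq start and the CACGTT match 73 bases before it. At Per1 (chr11:69098699-69098947, plus strand) the E-box ends 160 bases before a RefSeq start. The Cry2 match (chr2:92434070-92434319, minus strand) ends 160 bases and the Nr1d1 match (chr11:98775378-98775627, minus strand) 22 bases before the start. The D-boxes of Per3 (chr4:151044666-151044915, minus strand) end 197 and 150 bases before it. The Arntl element lies 28 bases after a RefSeq start, inside annotated exon sequence, and only 30 bases round it are shown (chr7:113207528-113207557, plus strand).
Cry1 promoter: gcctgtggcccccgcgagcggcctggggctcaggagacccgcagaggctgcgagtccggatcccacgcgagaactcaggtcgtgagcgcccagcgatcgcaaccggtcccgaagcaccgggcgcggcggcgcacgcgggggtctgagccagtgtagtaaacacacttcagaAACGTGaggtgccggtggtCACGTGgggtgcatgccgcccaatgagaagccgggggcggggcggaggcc
Per1 promoter: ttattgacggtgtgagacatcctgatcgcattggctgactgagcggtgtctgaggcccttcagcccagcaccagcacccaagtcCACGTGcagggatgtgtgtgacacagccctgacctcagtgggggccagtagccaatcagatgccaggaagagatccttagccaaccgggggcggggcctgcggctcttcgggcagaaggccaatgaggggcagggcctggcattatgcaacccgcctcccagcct
Cry2 promoter: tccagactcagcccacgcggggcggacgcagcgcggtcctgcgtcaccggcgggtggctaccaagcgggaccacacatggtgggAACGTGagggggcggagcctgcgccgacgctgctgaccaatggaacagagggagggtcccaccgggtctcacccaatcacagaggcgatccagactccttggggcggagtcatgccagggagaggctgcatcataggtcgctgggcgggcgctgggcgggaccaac
Nr1d1 promoter: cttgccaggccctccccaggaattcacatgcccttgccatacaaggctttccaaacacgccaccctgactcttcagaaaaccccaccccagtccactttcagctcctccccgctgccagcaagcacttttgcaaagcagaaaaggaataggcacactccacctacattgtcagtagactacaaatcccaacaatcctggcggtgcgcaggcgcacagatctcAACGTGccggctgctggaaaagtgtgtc
Per3 promoter: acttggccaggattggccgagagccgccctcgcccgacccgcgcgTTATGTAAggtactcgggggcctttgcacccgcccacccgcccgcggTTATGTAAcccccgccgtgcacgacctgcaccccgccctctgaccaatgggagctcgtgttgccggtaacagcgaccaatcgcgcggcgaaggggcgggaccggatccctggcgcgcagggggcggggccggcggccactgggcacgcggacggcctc
Arntl element: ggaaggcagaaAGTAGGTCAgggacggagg

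Away from the starts, the intronic Cry1 peak held 2 matches of ANTAGGTCA that face each other 44 bases apart, on opposite strands (chr10:85161964-85161972 and chr10:85161911-85161919), and 1 match of CACGTT (chr10:85161212-85161217). Of all peaks, 4.17% held at least 1 match of ANTAGGTCA. This is the peak with scores of 56.4 and 50.3 in old and 61.0 and 78.4 in young MSCs. The 2 peaks with an unadjusted p under 0.05 each held 1 match, CACGTT in the peak upstream of Arntl (chr7:113201903-113201908) and CACGTG in the intronic Per2 peak (chr1:91429055-91429060). Such matches are common, with CACGTT in 21.2% and CACGTG in 20.2% of all peaks. The stretches below give the ANTAGGTCA matches of Cry1 and the matches of Arntl and Per2 in capitals with up to 40 bases on either side, read from the GRCm38.p6 genome on the strand of the gene (Cry1 chr10:85161871-85162012, minus; Arntl chr7:113201863-113201948, plus; Per2 chr1:91429015-91429100, minus). None of them overlaps an annotated exon.
Cry1 intron: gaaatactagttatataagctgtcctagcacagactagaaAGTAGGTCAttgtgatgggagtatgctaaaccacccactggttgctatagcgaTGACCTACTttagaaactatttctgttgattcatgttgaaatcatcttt
Arntl upstream: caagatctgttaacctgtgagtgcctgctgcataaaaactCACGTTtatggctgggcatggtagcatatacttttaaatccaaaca
Per2 intron: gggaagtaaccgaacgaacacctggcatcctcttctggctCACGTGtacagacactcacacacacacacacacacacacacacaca

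Counted over whole peaks, a search added after the data had been seen, the 38 clock peaks (164.5 kb) held 36 matches of CACGTG, or 21.9 per 100 kb, where all peaks of the autosomes, X and Y held 15.7. The 10 promoter peaks, which make up 115.8 kb, held 26.8 per 100 kb and all promoter peaks 18.1. The other 28 clock peaks held fewer, 10.3 per 100 kb from 5 matches, and all other peaks 14.7. CACGTT came to 16.4 per 100 kb in clock peaks and 15.9 in all peaks. The D-box TTATGTAA came to 7.90 against 3.90, from 13 matches, and TTACGTAA to 2.43 against 0.317, from 4 matches in 4 peaks. The elements ANTAGGTCA and ANTGGGTCA, with 8 matches each, came to 4.86 per 100 kb in clock peaks and to 2.53 and 3.65 in all peaks. The cAMP response element TGACGTCA came to 3.04 against 1.25, from 5 matches. The median GC content was 50.3% in clock peaks and 46.1% in all peaks. The wide promoter peaks of Dbp and Per1 held 7 E-boxes each, and those of Cry2 and Nr1d1 held 6 each. These counts carry no test, and several rest on few matches.

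Other genes of the clock were examined as a list of 18 partners, which held, among others, paralogues of the core factors (Npas2, Arntl2), ROR factors (Rora, Rorb), further repressors (Ciart, Bhlhe40, Bhlhe41, Nfil3), relatives of DBP (Tef, Hlf), kinases and F-box proteins that set the stability of PER and CRY (Csnk1d, Csnk1e, Fbxl21, Btrc, Fbxw11) and Timeless. All 18 had a promoter peak, and of their 161 peaks 0 passed a false discovery rate of 0.01. At an unadjusted p under 0.05, 14 were higher and 7 lower in old MSCs (7.49% and 8.87% of all peaks). On summed scores 0 of the 18 passed (lowest adjusted p = 0.592) and 0 had an unadjusted p under 0.05, with 8 lower and 10 higher. The largest positive log2 fold change was that of Bhlhe41 (0.46, scores of 127 and 196 in old and 124 and 107 in young MSCs), and that of Arntl2 was 0.19. The largest negative ones were those of Fbxl21 (-0.24), Ciart (-0.15) and Npas2 (-0.15). Npas2, which can stand in for Clock, had 903 and 963 in old and 1023 and 1048 in young MSCs, so that, as for Clock, the old samples had the 2 lowest values. Of 6 genes under clock control, Nampt, Wee1, Usp2, Pparg, Cdkn1a and Ppargc1a, 0 passed (lowest adjusted p = 0.788), with log2 fold changes of summed scores between -0.13 and 0.077.

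Marker genes were used to check the label of the cells. All 8 MSC markers (Pdgfra, Ly6a, Prrx1, Thy1, Nt5e, Eng, Cxcl12 and Lepr) had a promoter peak, with summed promoter scores of 1235 and 1455 in old and 1217 and 1150.1 in young MSCs, the most from Cxcl12. Of 8 blood markers, 4 had a promoter peak (Spi1, Csf1r and Cd68 among them), while Ptprc and Itgam had other peaks and Adgre1 and Gata1 had 0 peaks. Their summed promoter scores were 444 and 635 in old and 603 and 539 in young MSCs, the most from Cd68. The only Cd68 peak is 11.9 kb wide and reaches beyond the gene, so its score is not that of Cd68 alone. The 4 endothelial markers came to 76.6 and 78.4 in old and 87.9 and 85.2 in young MSCs, with 0 promoter peaks at Cdh5. This sum hides opposite directions, since the Tek promoter had 27.1 and 28.1 in old and 50.1 and 43.0 in young MSCs and the Kdr promoter 31.0 and 29.0 in old and 23.9 and 24.6 in young MSCs. The 5 osteoblast markers came to 262 and 305 in old and 272 and 248 in young MSCs, led by Runx2. The 4 adipocyte markers came to 151 and 161 in old and 121 and 137 in young MSCs, led by Plin1, with 0 promoter peaks at Adipoq. Of the peaks of these 5 lists 0 passed a false discovery rate of 0.01. At an unadjusted p under 0.05, 7 of 28 MSC marker peaks were higher in old MSCs and 1 was lower, with 2 higher and 1 lower of 19 for blood, 2 and 3 of 27 for endothelium, 5 and 1 of 45 for osteoblasts and 2 and 0 of 8 for adipocytes (7.49% and 8.87% of all peaks). Open chromatin at a marker does not show its expression, and the makeup of the cultures in the clock values was not tested.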

How the data were processed

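The authors deposited 1 score per peak and sample, which they named RPKM, for 117282 peaks. The submitters' processing notes name Bowtie2, Picard and mm10. For cells cultured at low and normal oxygen, the authors used chromstaR peaks and an edgeR test with RLE factors at a false discovery rate of 0.01; the old and young samples are not described separately. The scores were whole multiples of 1 step per sample (100% of values, tolerance 0.01 of a step) and were not divided by peak length, which gave the totals printed above on a scale of 10000000 per library.

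Scores were divided by RLE factors, and log2(score + 1) was tested in R 4.3.3 by limma 3.58.1, with eBayes set to trend and robust, with Benjamini-Hochberg adjustment over all peaks, old against young, unpaired. Summed scores of a gene's peaks were tested alike over all protein-coding genes with a peak. A simulation with the same spread in every sample was used to test the limma step. In the data the old replicates differed more than the young ones (median log2 difference without regard to sign 0.31 and 0.21 over all peaks). The simulation is therefore no support for the p-values given here. Python 3.11.15, numpy 2.4.6, pandas 2.3.3, pysam 0.24.0 and matplotlib 3.10.9 were used for the rest, with GENCODE vM21 genes and RefSeq sequences (GRCm38.p6). The members and lists were chosen with earlier results of these data known. Counts and sums cover each whole list, and 3 listed genes are not reported by name here. Values in every sample are given for each gene's strongest promoter peak, for clock peaks with an unadjusted p under 0.05 and for each summed score, and the log2 fold change alone is given for some of the partner genes with the largest values in each direction. Alternatives were the scores as deposited, TMM factors (own implementation), quantile normalization, pseudocounts 0.1 and 5, leaving out weak peaks (34 of the 38 clock peaks passed), plain variance moderation, a replicate block, other windows and a false discovery rate of 0.05, and each sample left out. limma-voom on recovered counts was added after the data were seen.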

Additional observations from a re-analysis of the deposited data

How the results depend on the processing

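No clock peak and no summed clock score passed a false discovery rate of 0.01 with limma under any setting that kept all 4 samples, and 0 passed at 0.05. With the scores as deposited, the median over all peaks was -0.27. The count of clock peaks at an unadjusted p under 0.05 was then 0 higher and 5 lower (1.70% and 18.5% of all peaks), the median log2 fold change -0.22 (promoters -0.35) and the share lower 68.4%. Log2 fold changes turned to -0.25 and -0.23 at the promoter peaks of Dbp and Nr1d1, and for summed scores to -0.22 for Arntl, -0.20 for Per2, -0.23 for Nr1d1, -0.26 for Dbp, -0.095 for Arntl2, -0.21 for Usp2 and -0.29 for Ppargc1a. Values that kept their sign moved too. The promoter peaks of Clock, Cry1 and Nr1d2 came to -0.49, -0.44 and -0.48 and the upstream Arntl peak to 0.38. The Per2 coding exon peaks came to 0.16 and 0.036. The intronic Per2 peak from 91428201 came to 0.35 and the intronic Cry1 peak to -0.66. For the sums, Bhlhe41 came to 0.17, Fbxl21 to -0.53, and Ciart and Npas2 to -0.44 each. Quantile normalization turned small values, to 0.025 and 0.0017 at the Per2 and Per3 promoter peaks and to 0.0034, 0.022 and 0.018 for the sums of Per1, Per3 and Cdkn1a. It also brought the clock promoter median to -0.015 and the Arntl, Per1 and Cry1 promoter peaks to -0.015, -0.016 and -0.089. With limma-voom, chosen after seeing the data, the sum of Ppargc1a was -0.0048. In that fit 3 clock peaks were higher and 0 lower at an unadjusted p under 0.05 (8.05% and 9.53% of all peaks). Without trend and robust moderation, 1 clock peak was higher and 1 lower at that level (7.43% and 8.03% of all peaks). With gene bodies alone, 1 of 33 clock peaks was higher (7.49% of all peaks). The Per2 peak of 100 bp (-0.88) moved to -1.46 and -0.32 with pseudocounts of 0.1 and 5, to -0.54 with quantile normalization and to -1.40 with limma-voom. The edgeR alternative was not run; limma-voom took its place. The cause was not tested.

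With the replicate block, 0 clock peaks were lower and 0 higher at a false discovery rate of 0.01. Of all peaks, 907 were then called lower and 362 higher, against 36 and 30 without the block. At an unadjusted p under 0.05, 2 clock peaks were higher and 0 lower with the block (6.86% and 8.13% of all peaks). Deviations of same-numbered samples correlated at -0.0993 over peaks. The labels do not say whether same-numbered samples shared a batch or day.

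Leaving out each sample gave ranges of 0 to 1 clock peaks called lower, 0 to 2 called higher, 0 to 1 clock genes called and 0 to 7 partner peaks called. At an unadjusted p under 0.05 there were 0 to 6 lower and 0 to 9 higher clock peaks. The 6 came without old replicate 2, where 10.1% of all peaks were lower, and the 9 without old replicate 1, where 13.6% were higher. The median log2 fold change ranged from -0.033 to 0.20 (promoters from -0.19 to 0.067) and the share lower from 23.7% to 57.9%. Of all peaks, 6388 were called lower and 3925 higher without old replicate 1, and 1229 lower and 461 higher without old replicate 2. Promoter log2 fold changes ranged from -0.24 to 0.10 at Arntl, -0.15 to 0.031 at Cry2, -0.044 to 0.12 at Dbp, -0.11 to 0.23 at Nr1d1, -0.34 to 0.22 at Per1, -0.35 to 0.28 at Per2 and -0.14 to 0.048 at Per3, and from -0.038 to 0.68 at the Per2 peak from 91444601, 0.015 to 0.87 at that from 91435701 and 0.40 to 0.84 at that from 91428201. Summed scores ranged from -0.099 to 0.23 for Arntl, -0.13 to 0.020 for Cry2, -0.051 to 0.12 for Dbp, -0.11 to 0.23 for Nr1d1, -0.31 to 0.24 for Per1, -0.24 to 0.42 for Per2, -0.10 to 0.069 for Per3, -0.073 to 0.46 for Arntl2, -0.35 to 0.26 for Cdkn1a, -0.085 to 0.091 for Ppargc1a, -0.00020 to 0.15 for Usp2 and -0.30 to 0.091 for Wee1. Without old replicate 1, the summed scores of Bhlhe41 (0.76) and Arntl2 (0.46) passed the threshold, as did 22.3% of all genes, but over the samples left out Bhlhe41 ranged down to 0.15. The promoter and summed values of Clock, Cry1 and Nr1d2 and the upstream Arntl peak kept their sign in every setting run. The old and young samples do not overlap there, so leaving out a sample could not turn the sign. The replicate block leaves these log2 fold changes unchanged, so neither kind of setting tests the sign. Their size did vary. With each sample left out, Nr1d2 ranged from -0.29 to -0.088 at its promoter and from -0.24 to -0.055 in its sum. The intronic Cry1 peak, also without overlap, ranged from -0.55 to -0.19. The sums of Ciart and Fbxl21 ranged from -0.30 to -0.0057 and from -0.38 to -0.11.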
